A study of Homo sapiens with 48 samples.

Results

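The 10 genes examined here are 9 members of the BCL2 family (BCL2L1, MCL1, BAX, BAK1, BBC3, PMAIP1, BCL2L11, BID and BAD) and TNFRSF10B, which encodes death receptor 5. They were chosen by gene symbol, with earlier results of these data known. All 10 are among the 11145 genes of the ribosome-protected fragment (RPF) table, the 11947 genes of the total cytoplasmic RNA table and the 10836 genes that both tables hold.

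Proteins of the BCL2 family control whether the outer mitochondrial membrane stays intact. BCL-xL (BCL2L1) and MCL-1 keep the pore formers BAX and BAK (BAK1) in check, and the BH3-only proteins PUMA (BBC3), NOXA (PMAIP1), BIM (BCL2L11), BID and BAD bind them through a short helix, the BH3 domain. Death receptor 5 binds the ligand TRAIL at the cell surface and recruits caspase 8, which can cleave BID and so join both routes to cell death. eIF2B is the exchange factor that reloads eIF2 with GTP, and loss of its activity favours translation of ATF4. ATF4 in turn raises expression of CHOP (DDIT3), a transcription factor known to act on TNFRSF10B and on BH3-only genes.

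Ribo-seq was run in SW480 cells, a human APC-mutant colorectal cancer (CRC) line. The cells carried 1 of 3 doxycycline (DOX)-inducible shRNAs, delivered by lentivirus: a non-targeting shCTRL, shEIF2B1 against eIF2Bα or shEIF2B4 against eIF2Bδ. Each line was kept for 5 days in DMSO (the -DOX groups) or in DOX at 1 µg/ml (the +DOX groups), so that the induced shCTRL cells received the inducer as well. Every group consisted of SW480 cells with an integrated shRNA vector, and each target was represented by 1 shRNA line. The 6 groups had 4 replicates each, run in separate weeks. Per the study's methods, transduced cells were drug-selected and kept as pools, not as clones. Each of the 24 lysates gave an RPF library and a total RNA library.

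The deposited values are regularized log2 values, which the authors computed for each table on its own. Library medians lay between 6.84 and 7.12 in RPFs and between 7.85 and 7.92 in total RNA, with no counts from which a library's depth could be read. The RPF medians of shEIF2B4 (6.84 to 6.97) all lay below those of the other lines (6.98 to 7.12). Values printed for different lines are not adjusted for this offset. The targeted mRNAs fell in the lines that target them, with a total RNA response of -0.67 for EIF2B1 and -0.49 for EIF2B4 (limma adjusted p = 0.0263 and 0.0634). In RPFs EIF2B4 was also wholly lower in +DOX than in -DOX libraries of shEIF2B1, while its total RNA overlapped there. In that line 49.4% of all genes changed on DOX in RPFs, in either direction, at a limma adjusted p under 0.1. The share of genes with wholly lower +DOX libraries there is not given here. EIF2B1 overlapped between treatments of shEIF2B4 in RPFs and total RNA. Of 8 listed markers of colorectal epithelium 6 were in the total RNA table, and KRT20 and VIL1 were not. By mean total RNA, EPCAM, KRT8, KRT18 and KRT19 lay between percentiles 82.9 and 99.3. CDX2 lay at percentile 41.0 and CDH1 at 6.33. The table held 1 of 3 leukocyte markers (CD68, at percentile 10.7, above CDH1), 0 of 3 fibroblast markers and 0 of 2 endothelial markers.

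The feature that the 9 BCL2 family members share is the BH3 helix, whose core is a leucine followed 4 residues later by a small residue and an aspartate. The 30 coding bases around it are shown so that the members can be compared, 5′ to 3′ on the coding strand, from GENCODE v29 transcripts on GRCh38. Capitals mark the leucine codon and the codons of the small residue and the aspartate.
BCL2L1: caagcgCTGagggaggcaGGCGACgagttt
MCL1: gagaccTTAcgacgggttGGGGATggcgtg
BAX: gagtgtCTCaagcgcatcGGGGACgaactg
BAK1: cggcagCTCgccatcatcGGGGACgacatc
BBC3: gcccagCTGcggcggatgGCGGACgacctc
PMAIP1: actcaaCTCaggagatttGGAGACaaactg
BCL2L11: caagagTTGcggcgtattGGAGACgagttt
BID: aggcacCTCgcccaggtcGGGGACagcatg
BAD: cgcgagCTCcggaggatgAGTGACgagttt

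The small residue was glycine in 7 of the 9 windows, alanine in BBC3 and serine in BAD. Each window lies within 1 coding exon. The anti-apoptotic windows lie at chr20:31721928-31721957 (minus strand, exon 1 of 2) and chr1:150578871-150578900 (minus strand, exon 1 of 3). Those of the pore formers lie at chr19:48955781-48955810 (plus strand, exon 3 of 6) and chr6:33575393-33575422 (minus strand, exon 4 of 6). The BH3-only windows lie at chr19:47226585-47226614 (minus strand, exon 2 of 3), chr18:59902667-59902696 (plus strand, exon 2 of 2), chr2:111150097-111150126 (plus strand, exon 3 of 4), chr22:17739421-17739450 (minus strand, exon 4 of 6) and chr11:64271628-64271657 (minus strand, exon 3 of 4). In 7 of 9 genes the window is in frame in the coding sequence (CDS) of the transcript on which the authors counted RPFs, with MCL1 read from another transcript because v29 does not hold the counted one. The exceptions are BBC3 and BID. The transcript counted for BBC3 (ENST00000300880.11, the same version in v29, with a CDS of 303 bases) lacks the window, and that counted for BID (CDS of 297 bases in v29) begins its CDS at the last codon of the window. For these 2 genes the window was read from other transcripts of the gene, and the RPF values describe a CDS that does not encode the BH3 core.

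The response to a knockdown is how far its line moved on DOX beyond the move of shCTRL, on the log2 scale. It was fitted by limma over the 16 lysates of both lines with the week as a block, and a gene was called where its p, adjusted by Benjamini-Hochberg, was under 0.1. Every adjusted p below is from these two-sided limma fits over all genes of a table. It weighs a change against the spread left between libraries of the 4 weekly experiments once group and week means are fitted. Limma draws that spread in part from all genes. In RPFs 5 of the 10 genes rose after shEIF2B1 and 0 fell: BAD, BBC3, BAX, BAK1 and TNFRSF10B. Over all genes 27.3% were called, 12% higher and 15.3% lower. After shEIF2B4 TNFRSF10B was the 1 gene called, against 2.75% of all genes, 1.88% higher. The median RPF response of the 10 genes was 0.27 after shEIF2B1 and 0.25 after shEIF2B4, beside -0.011 and -0.017 over all genes. Since the 10 genes were chosen with earlier results of these data known, the counts and medians are a description. Both responses subtract the same shCTRL libraries. In bulk lysates a change in the share of cells that express a gene and a change per cell cannot be told apart.

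In total RNA 0 of the 10 genes were called after shEIF2B1 (3.47% of all genes were). BBC3 and BID had an unadjusted limma p under 0.05, as did 1825 of all 11947 genes. After shEIF2B4 1 of 10 rose, MCL1 (background 5.4%, 3.78% higher). Log2 translation efficiency (TE), the RPF value less the total RNA value of a lysate, rose for 2 of 10 genes after shEIF2B1, BAD and BAK1 (background 7.1%, 2.97% higher). After shEIF2B4 0 of 10 were called in TE (background 0.0923%). At an unadjusted limma p under 0.05 there were 3, beside 1848 of all 10836 genes.

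**Figure D1:**
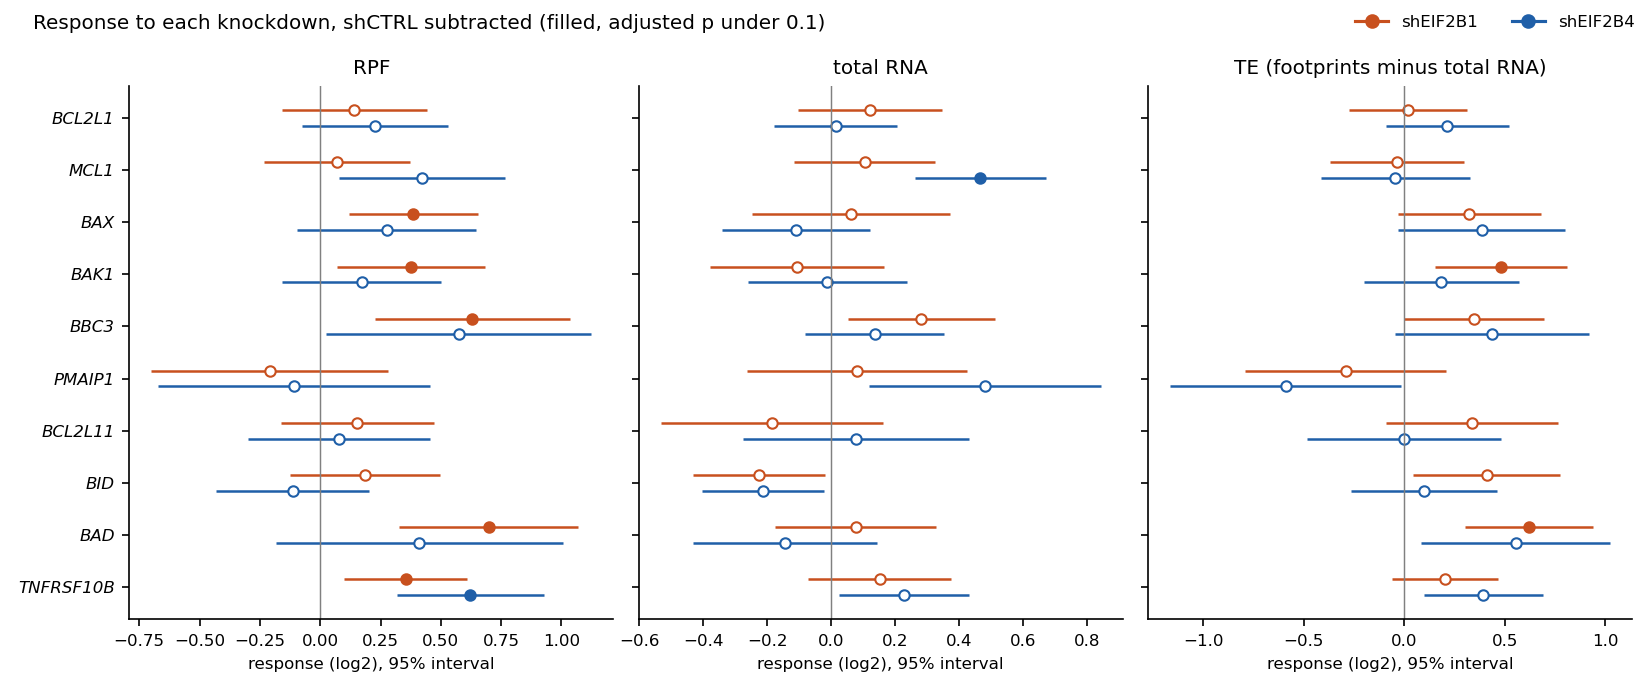
Response of each gene to shEIF2B1 (orange) and shEIF2B4 (blue) in RPFs, total RNA and TE, in log2 units with the change of shCTRL subtracted; points are limma estimates from 16 lysates, bars 95% intervals, and filled points have an adjusted p under 0.1. The filled points are 5 orange and 1 blue in RPFs, 1 blue in total RNA (MCL1) and 2 orange in TE (BAK1 and BAD).

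Among the anti-apoptotic genes, MCL1 RNA rose after shEIF2B4. MCL1 (ENSG00000143384.14, chromosome 1, 150574551 to 150579738, minus strand, GENCODE v29 on GRCh38, as for all genes below) encodes a short-lived inhibitor of BAX and BAK. In total RNA the log2 values of replicates 1 to 4 were 9.15, 9.11, 9.05 and 9.18 in -DOX and 9.43, 9.58, 9.56 and 9.67 in +DOX of shEIF2B4. The shCTRL values were 9.24, 9.15, 9.28 and 9.38 in -DOX and 9.24, 9.04, 9.23 and 9.44 in +DOX. In shEIF2B1 they were 9.30, 9.24, 9.24 and 9.34 in -DOX and 9.46, 9.24, 9.43 and 9.30 in +DOX. The -DOX and +DOX libraries of shEIF2B4 did not overlap, while those of shCTRL and shEIF2B1 did. Among all genes, 14.6% had +DOX libraries of shEIF2B4 wholly above the -DOX libraries in total RNA. The response was 0.47 (standard error 0.097, adjusted p = 0.0106) after shEIF2B4, higher in 4 of 4 weeks, and 0.11 (95% interval -0.11 to 0.33, adjusted p = 0.687) after shEIF2B1. The shEIF2B4 response was called under each of the 13 alternatives run, at adjusted p-values from 0.00146 to 0.0991.

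RPFs of MCL1 were 6.74, 7.22, 7.21 and 7.37 in -DOX and 7.25, 7.53, 7.57 and 7.64 in +DOX of shEIF2B4, a response of 0.42 (95% interval 0.079 to 0.77) that did not pass the test (adjusted p = 0.214). The groups overlapped, since replicate 1 in +DOX lay below replicate 4 in -DOX, and each week's +DOX library was above its -DOX library. Its TE responses were -0.035 and -0.044 (95% intervals -0.37 to 0.30 and -0.42 to 0.33). BCL2L1 (ENSG00000171552.14, chromosome 20, 31664452 to 31723989, minus strand), which encodes BCL-xL and overlaps the antisense gene ABALON, was not called in any measure. Its 6 group means spanned 9.47 to 9.74 in RPFs (pooled SD within groups 0.15) and 10.39 to 10.53 in total RNA (pooled SD 0.079). The RPF responses of BCL2L1 were 0.14 (95% interval -0.16 to 0.44) and 0.23 (95% interval -0.074 to 0.53).

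Of the pore formers, BAX and BAK1 rose in RPFs after shEIF2B1. BAX (ENSG00000087088.20, chromosome 19, 48954815 to 48961798, plus strand) had RPF values of 10.03, 9.32, 9.97 and 9.42 in -DOX and 10.14, 9.68, 9.85 and 9.68 in +DOX of shEIF2B1. In shCTRL they were 10.08, 9.74, 10.18 and 9.70 in -DOX and 9.87, 9.62, 9.90 and 9.37 in +DOX. In shEIF2B4 they were 10.44, 9.46, 9.72 and 9.54 in -DOX and 10.39, 9.60, 9.95 and 9.38 in +DOX. The -DOX and +DOX libraries overlapped in all 3 lines, and replicate 1 was the highest of both shEIF2B4 groups. The response of BAX was 0.39 (standard error 0.13, adjusted p = 0.0432), higher in 4 of 4 weeks, and was made up of 0.15 in shEIF2B1 (adjusted p = 0.229) and -0.23 in shCTRL (adjusted p = 0.132), neither of which was called alone. Without replicate 1 or 4 the adjusted p of BAX was 0.102 and 0.241. Total RNA of BAX showed no call, with responses of 0.062 and -0.11, and its response to shEIF2B4 was 0.28 in RPFs (adjusted p = 0.462).

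BAK1 (ENSG00000030110.13, chromosome 6, 33572547 to 33580293, minus strand) had RPF values of 6.32, 6.15, 6.32 and 6.12 in -DOX and 6.66, 6.38, 6.58 and 6.16 in +DOX of shEIF2B1. The shCTRL values were 6.83, 6.24, 6.80 and 6.45 in -DOX and 6.52, 6.23, 6.47 and 6.47 in +DOX. Both lines overlapped between -DOX and +DOX. The response to shEIF2B1 was 0.38 (standard error 0.15, adjusted p = 0.0785) in RPFs and 0.48 (standard error 0.16, adjusted p = 0.0909) in TE, each higher in 4 of 4 weeks, against -0.11 in total RNA (adjusted p = 0.756). In RPFs the call was lost without replicate 1 (adjusted p = 0.309) or 3 (0.282), and in TE without replicate 1, 3 or 4 (adjusted p = 0.379, 0.378 and 0.239). After shEIF2B4 the responses of BAK1 were 0.17 in RPFs and 0.19 in TE, both not called. BAK1 has 2 annotated pseudogenes, BAK1P1 and BAK1P2, so its counts may include reads from these copies, and it overlaps GGNBP1 on the opposite strand.

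**Figure D2:**
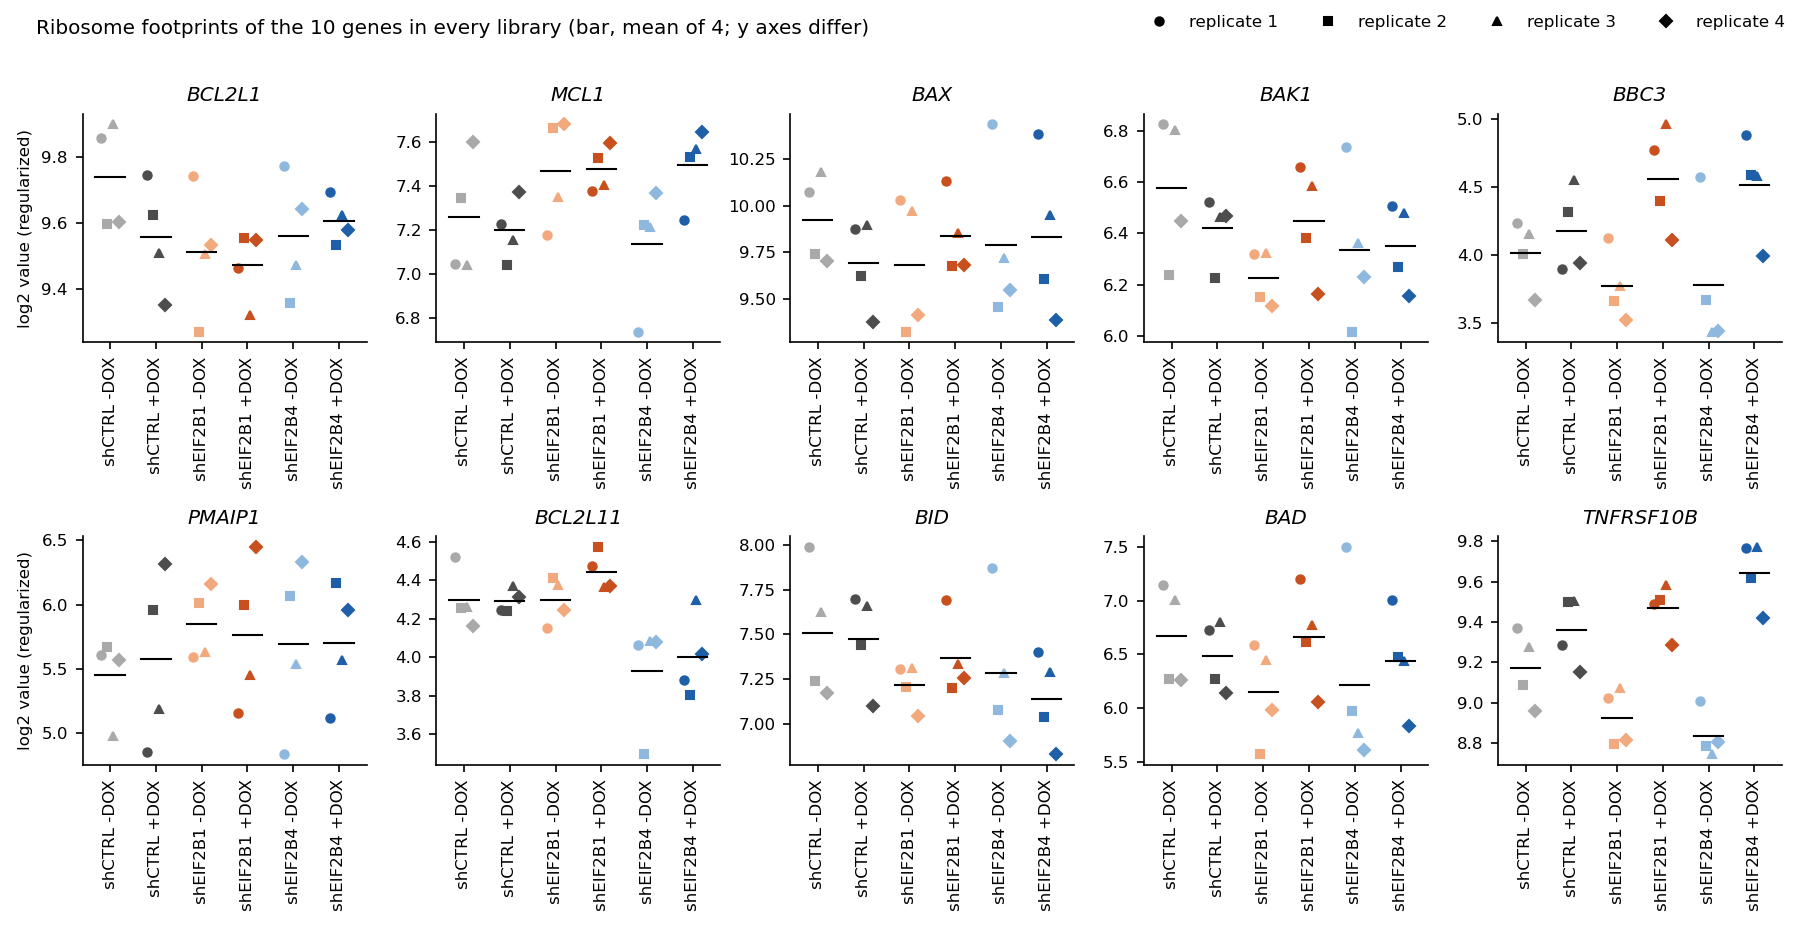
RPF value (regularized log2) of each gene in every library, by line and treatment; symbols mark the 4 replicates (weeks), bars the group means, and the y axes differ between panels. In TNFRSF10B the +DOX libraries of shEIF2B1 (9.29 to 9.59) and shEIF2B4 (9.42 to 9.77) lie above all -DOX libraries of the same line, while in the other panels the treatments overlap and the weeks spread widely in BAD and PMAIP1.

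Among the BH3-only genes, BBC3 and BAD rose in RPFs after shEIF2B1. BBC3 (ENSG00000105327.18, chromosome 19, 47220822 to 47232766, minus strand) encodes PUMA, which binds all anti-apoptotic family members. Its RPF values were 4.12, 3.66, 3.77 and 3.52 in -DOX and 4.77, 4.40, 4.96 and 4.11 in +DOX of shEIF2B1. In shEIF2B4 they were 4.57, 3.67, 3.43 and 3.44 in -DOX and 4.89, 4.59, 4.58 and 3.99 in +DOX. In shCTRL they were 4.23, 4.00, 4.15 and 3.67 in -DOX and 3.89, 4.32, 4.55 and 3.94 in +DOX. In shEIF2B1 replicate 1 without DOX (4.12) was just above replicate 4 with DOX (4.11), and each week's +DOX library was above its -DOX library in both knockdown lines. The response was 0.63 (standard error 0.19, adjusted p = 0.0299) to shEIF2B1, higher in 4 of 4 weeks, and 0.57 (standard error 0.26, adjusted p = 0.298) to shEIF2B4, also higher in 4 of 4 weeks but not called. Without replicate 3 the adjusted p for shEIF2B1 was 0.102, and without replicate 1 that for shEIF2B4 was 0.0825. These are low values, at percentile 7.15 of the RPF table by mean, and were counted on a CDS that does not encode the BH3 core.

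In total RNA BBC3 values were 4.73, 4.54, 4.64 and 4.60 in -DOX and 5.03, 4.93, 5.37 and 5.02 in +DOX of shEIF2B1. In shEIF2B4 they were 4.74, 4.64, 4.65 and 4.55 in -DOX and 4.89, 5.10, 5.08 and 4.74 in +DOX. The shCTRL values were 4.74, 4.56, 4.76 and 4.72 in -DOX and 4.81, 4.95, 4.90 and 4.80 in +DOX. The +DOX libraries lay above the -DOX libraries in all 3 lines, shCTRL included. Of all genes 3.78% did so in shCTRL, 13.8% in shEIF2B1 and 14.6% in shEIF2B4. The change on DOX was 0.45 in shEIF2B1, 0.31 in shEIF2B4 and 0.17 in shCTRL (adjusted p = 0.00155, 0.00589 and 0.243). With the shCTRL change subtracted, the responses of 0.28 and 0.14 were not called (adjusted p = 0.220 and 0.541).

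BAD (ENSG00000002330.14, chromosome 11, 64269830 to 64284704, minus strand) encodes a BH3-only protein that binds BCL-xL and is regulated by phosphorylation. Its RPF values were 6.59, 5.57, 6.45 and 5.99 in -DOX and 7.20, 6.61, 6.78 and 6.05 in +DOX of shEIF2B1. In shCTRL they were 7.15, 6.27, 7.00 and 6.26 in -DOX and 6.72, 6.27, 6.80 and 6.14 in +DOX. In shEIF2B4 they were 7.50, 5.97, 5.76 and 5.61 in -DOX and 7.00, 6.48, 6.44 and 5.84 in +DOX. All 3 lines overlapped, and replicate 1 in shEIF2B4 without DOX was the highest of the 24 RPF libraries. The RPF response to shEIF2B1 was 0.70 (standard error 0.18, adjusted p = 0.0115), higher in 4 of 4 weeks and called without any 1 of the replicates. In TE it was 0.62 (standard error 0.15, adjusted p = 0.0407), with the call lost without replicate 1, 3 or 4 (adjusted p = 0.249, 0.129 and 0.104), and in total RNA 0.077 (adjusted p = 0.824). After shEIF2B4 the RPF response was 0.41 (adjusted p = 0.496), higher in 3 of 4 weeks. Without replicate 1 it was 0.57 and called (adjusted p = 0.0889). BAD overlaps GPR137 on the opposite strand, and strand use in the counting is not given in the sources used here.

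PMAIP1, BCL2L11 and BID did not pass the test in RPFs. PMAIP1 (ENSG00000141682.12, chromosome 18, 59899948 to 59904306, plus strand) encodes NOXA, which binds MCL-1. Its RPF responses were -0.21 (95% interval -0.70 to 0.28) and -0.11 (95% interval -0.67 to 0.46), with a week-to-week spread (pooled SD 0.52) above its range of group means (0.40). In total RNA PMAIP1 was 9.31, 9.36, 8.56 and 9.54 in -DOX and 9.43, 9.41, 9.47 and 9.31 in +DOX of shEIF2B4. Replicate 3 in -DOX was the lowest of these 8 values. The response of 0.48 was not called (adjusted p = 0.151). BCL2L11 (ENSG00000153094.24, chromosome 2, 111119378 to 111168447, plus strand), which encodes BIM and overlaps MIR4435-2HG on the opposite strand, had RPF responses of 0.15 and 0.077 at percentile 7.96 of the table, with adjusted p = 0.505 and 0.870. BID (ENSG00000015475.19, chromosome 22, 17734138 to 17774770, minus strand), the substrate of caspase 8, had total RNA responses of -0.22 and -0.21, lower in 4 of 4 weeks in each line. Neither was called (adjusted p = 0.278 and 0.234), and its RPF responses, on a CDS without the BH3 core, were 0.19 and -0.11.

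**Figure D3:**
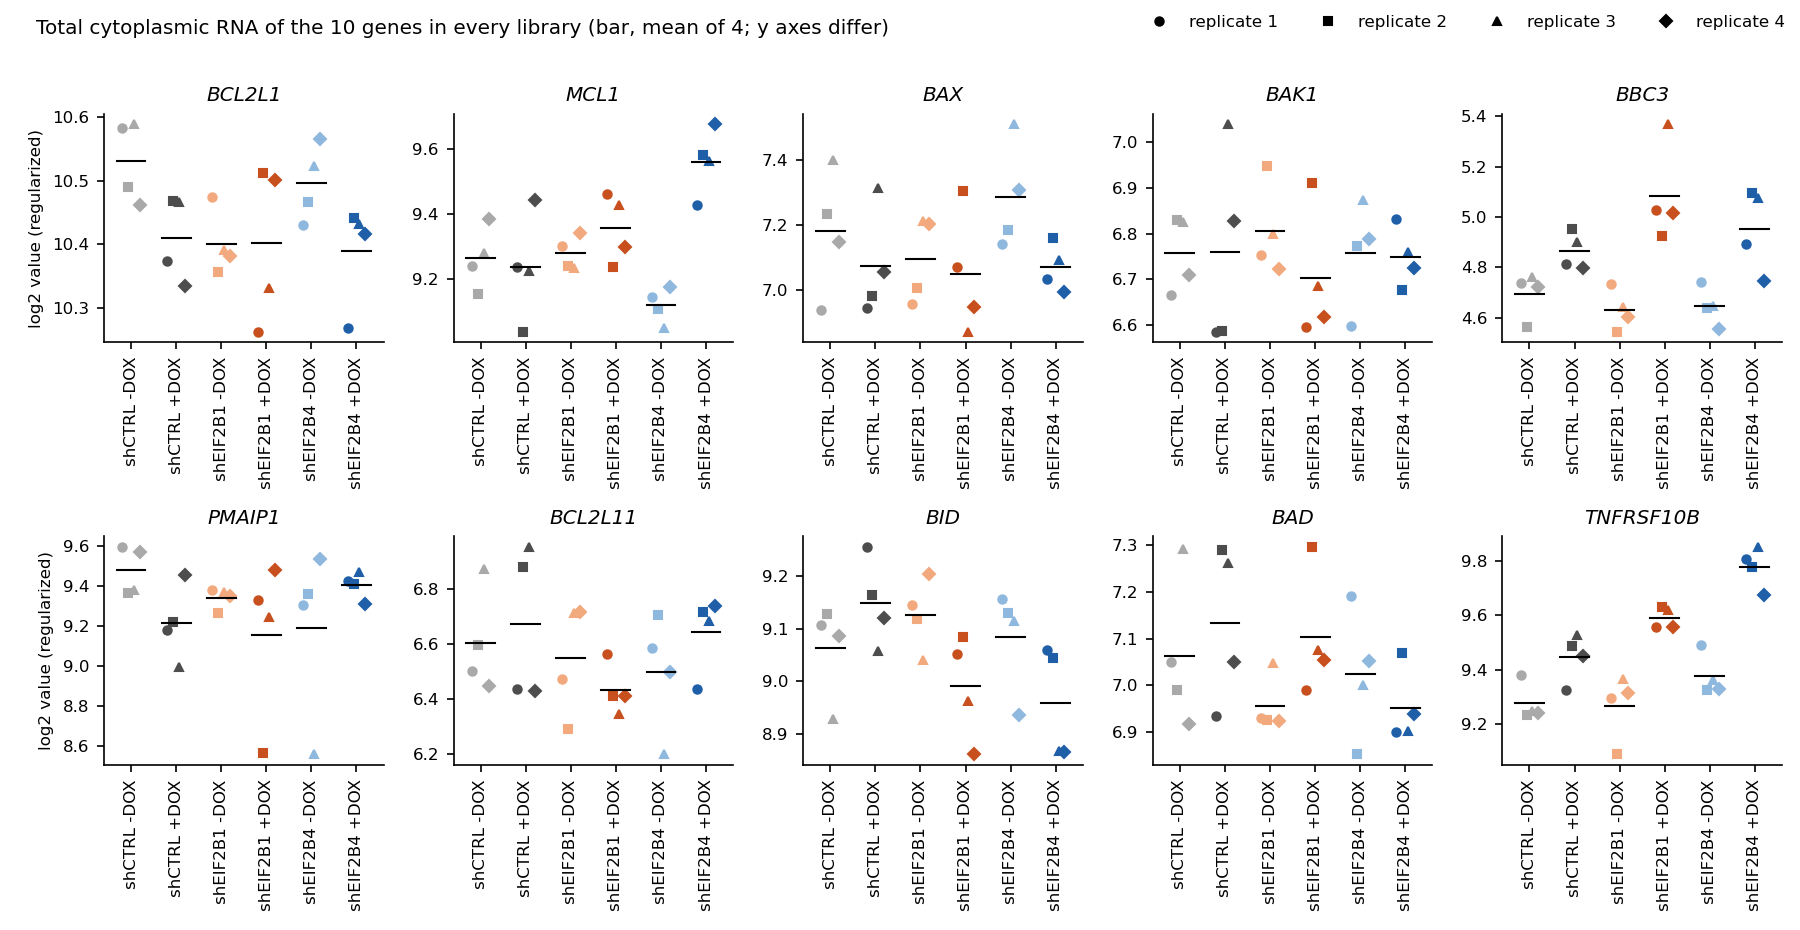
Total RNA value (regularized log2) of each gene in every library, drawn as in the plot of RPF values. The +DOX libraries lie above the -DOX libraries of the same line for MCL1 in shEIF2B4 (9.43 to 9.67 against 9.05 to 9.18), for TNFRSF10B in both knockdown lines and for BBC3 in all 3 lines.

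TNFRSF10B (ENSG00000120889.13, chromosome 8, 23020133 to 23069179, minus strand) rose in RPFs after both knockdowns. Its RPF values were 9.02, 8.80, 9.07 and 8.81 in -DOX and 9.49, 9.51, 9.59 and 9.29 in +DOX of shEIF2B1. In shEIF2B4 they were 9.01, 8.79, 8.74 and 8.81 in -DOX and 9.77, 9.62, 9.77 and 9.42 in +DOX. The shCTRL values were 9.37, 9.09, 9.28 and 8.96 in -DOX and 9.28, 9.50, 9.51 and 9.15 in +DOX. The treatments did not overlap in either knockdown line and overlapped in shCTRL. Of the 10 genes it was the 1 with wholly higher +DOX libraries in RPFs, in a table where 8.2% of genes showed this in shEIF2B1 and 4.59% in shEIF2B4. The response was 0.35 (standard error 0.12, adjusted p = 0.0498) to shEIF2B1 and 0.62 (standard error 0.14, adjusted p = 0.0399) to shEIF2B4, higher in 4 of 4 weeks in both.

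The calls of TNFRSF10B were lost without some of the weeks. For shEIF2B1 the adjusted p was 0.200, 0.114 and 0.145 without replicate 1, 3 or 4. For shEIF2B4 it was 0.170, 0.296 and 0.273 without replicate 2, 3 or 4, and the responses then were 0.69, 0.56 and 0.69. In RPFs the change on DOX before subtraction was 0.54 in shEIF2B1, 0.81 in shEIF2B4 and 0.19 in shCTRL (adjusted p = 8.07e-05, 0.000143 and 0.266). Here 49.4% and 23.8% of all genes were called in the knockdown lines. TNFRSF10B overlaps RHOBTB2 on the opposite strand.

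Total RNA of TNFRSF10B was 9.30, 9.09, 9.36 and 9.31 in -DOX and 9.56, 9.63, 9.62 and 9.56 in +DOX of shEIF2B1. In shEIF2B4 it was 9.49, 9.33, 9.36 and 9.33 in -DOX and 9.81, 9.78, 9.85 and 9.68 in +DOX. In shCTRL it was 9.38, 9.23, 9.25 and 9.24 in -DOX and 9.33, 9.49, 9.53 and 9.45 in +DOX. The treatments were again apart in both knockdown lines and overlapped in shCTRL. Among all genes, 13.8% in shEIF2B1 and 14.6% in shEIF2B4 had +DOX libraries wholly above the -DOX libraries in total RNA. With shCTRL subtracted the responses were 0.15 (95% interval -0.072 to 0.38, adjusted p = 0.539) and 0.23 (95% interval 0.026 to 0.43, adjusted p = 0.224), neither of which passed the test. In TE they were 0.20 (adjusted p = 0.378) and 0.39 (adjusted p = 0.210), higher in 4 of 4 weeks in each line and not called. The TE libraries of both knockdown lines were nonetheless apart, with +DOX above -DOX, as for 2.23% of all genes in shEIF2B1 and 1.75% in shEIF2B4.

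The knockdown lines were also fitted alone, without subtracting shCTRL. In RPFs 3 genes rose in shEIF2B1, BBC3 (0.79), TNFRSF10B and BAD (0.51), and 3 in shEIF2B4, TNFRSF10B, BBC3 (0.74) and MCL1 (0.36), where 49.4% and 23.8% of all genes were called. BAX and BAK1, called as responses to shEIF2B1, were not called on this scale (BAK1 0.22, adjusted p = 0.129). In total RNA 2 genes rose in shEIF2B1, BBC3 and TNFRSF10B (0.32), where 34.4% of all genes were called. In shEIF2B4, with 34.4% of all genes called, MCL1 (0.44), TNFRSF10B (0.40) and BBC3 rose and BAX fell (-0.22). In TE the genes called were BBC3 (0.34), BAK1 (0.32) and BAD (0.36) in shEIF2B1 (background 17.1%) and BBC3 (0.43) and TNFRSF10B (0.41) in shEIF2B4 (background 6.21%), all higher.

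The CDS of all 10 genes was richer in G and C than the median CDS of the RPF table (52.5%). It was 67.3% for BAD (percentile 96.1), 65.0% for BBC3 (percentile 92.2), 61.1% for BAX, 61.0% for MCL1, 59.6% for BID and 59.4% for BAK1. The other 4 lay between 53.7% (BCL2L11) and 56.9% (BCL2L1), with TNFRSF10B at 56.1%. A cubic trend of the values on CDS GC was removed within each library, a setting chosen after the data were seen, and the responses were fitted again with the week as a block. The 5 RPF calls after shEIF2B1 were then all lost: the responses were 0.37 for BAD, 0.34 for BBC3, 0.26 for TNFRSF10B, 0.21 for BAK1 and 0.18 for BAX, with adjusted p = 0.203, 0.320, 0.193, 0.442 and 0.411. All 5 kept their sign. The count over all genes went from 3038 to 889 under this setting. TNFRSF10B after shEIF2B4 was 0.55 and called (adjusted p = 0.0306), as was MCL1 in total RNA. What part base composition had in these responses was not tested.

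**Figure D4:**
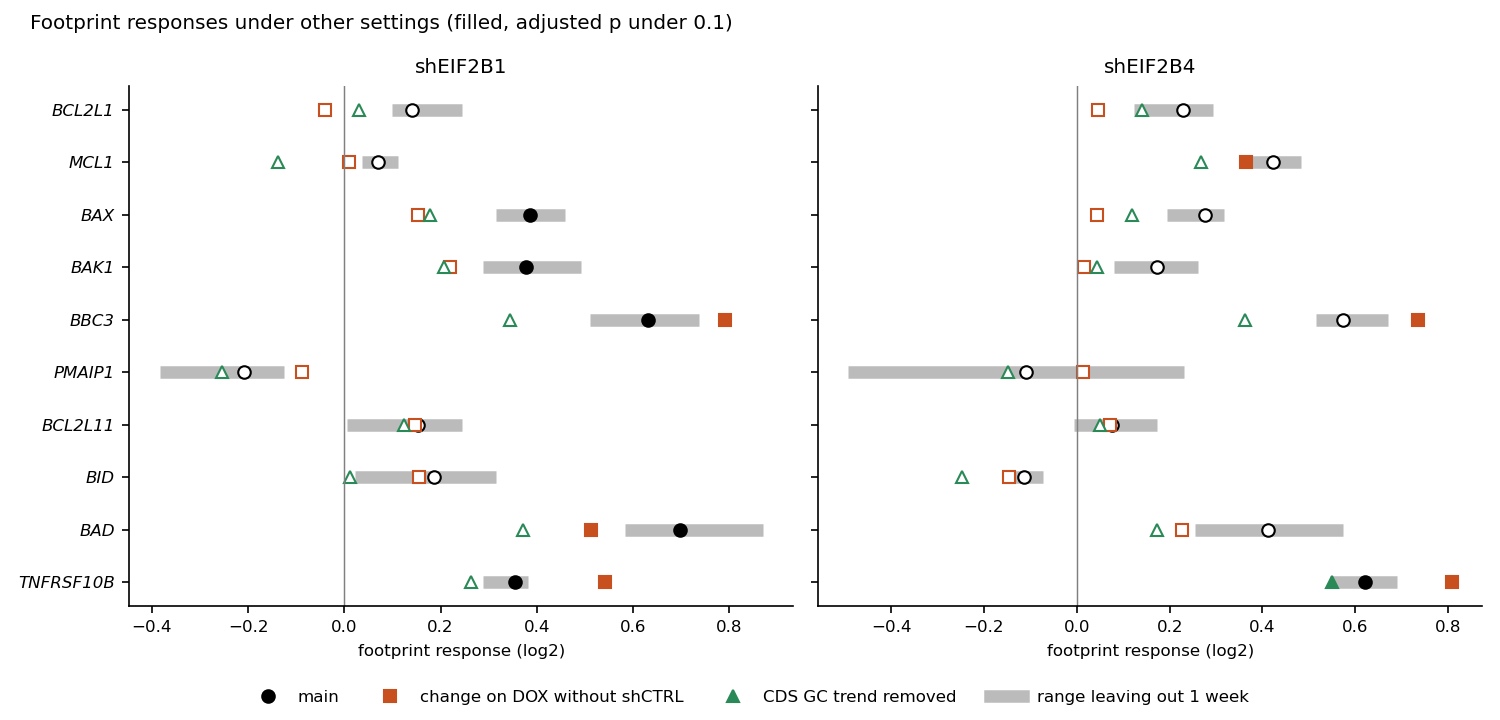
RPF responses (log2) of the 10 genes to shEIF2B1 (left) and shEIF2B4 (right) as reported (black circles), without the shCTRL subtraction (orange squares) and with the CDS GC trend removed (green triangles); grey bars span the fits that leave out 1 week, and filled symbols have an adjusted p under 0.1. Of the green triangles only TNFRSF10B in the right panel is filled, at 0.55.

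The difference between both responses was tested directly over all 24 lysates, as shEIF2B1 minus shEIF2B4. By limma 0 of 10 genes were called in RPFs, total RNA or TE, where 0.00897%, 0.1% and 0% of all genes were. At an unadjusted p under 0.05 there were 2 in RPFs, 1 in total RNA and 0 in TE. Over all genes 713 of 11145, 1528 of 11947 and 665 of 10836 had such a p. MCL1 was lower after shEIF2B1 in RPFs (-0.35, 95% interval -0.66 to -0.047, adjusted p = 0.746) and in total RNA (-0.36, 95% interval -0.57 to -0.16, adjusted p = 0.208), in 4 of 4 weeks each, without passing the test. For TNFRSF10B the difference in RPFs was -0.27 (95% interval -0.53 to -0.0019, adjusted p = 0.746). For the other 8 genes the differences lay between -0.10 and 0.30 in RPFs, between -0.40 and 0.22 in total RNA and between -0.20 and 0.34 in TE. A gene called after 1 knockdown is therefore not shown to differ between them.

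In shCTRL, 1 of the 10 genes was called on DOX. There DOX also induced the non-targeting shRNA, and the effects of inducer and shRNA cannot be told apart. PMAIP1 total RNA was 9.60, 9.37, 9.38 and 9.57 in -DOX and 9.18, 9.22, 9.00 and 9.46 in +DOX of shCTRL, lower in 4 of 4 weeks. The groups overlapped through replicate 4 in +DOX. The change was -0.27 (standard error 0.075, adjusted p = 0.0966) by limma over 8 libraries (background 4.44% of all genes), and the call was lost without replicate 2, 3 or 4 (adjusted p = 0.124, 0.469 and 0.296). In RPFs and TE of shCTRL 0 of 10 were called (background 9.85% and 0.388%), with 1 and 2 at an unadjusted p under 0.05. Over all genes 2683 of 11145 and 1630 of 10836 had such a p. Without replicate 1, 4 genes were called in shCTRL RPFs: TNFRSF10B (0.28), BBC3 (0.33) and PMAIP1 (0.41) higher and BAX (-0.24) lower. That fit called 3526 of all 11145 genes.

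Levels were compared between genes per length, as the log2 value minus log2 of the kilobases of CDS for RPFs and of transcript for total RNA, in shCTRL -DOX. In RPFs per kb of CDS the order was BAX (10.72 ± 0.24, SD, n = 4), BCL2L1 (10.26 ± 0.16), BID, TNFRSF10B, PMAIP1, BAD, BAK1, MCL1, BBC3 (5.74 ± 0.25) and BCL2L11 (5.05 ± 0.15). The gaps between BID and TNFRSF10B, PMAIP1 and BAD, BAD and BAK1, and BAK1 and MCL1 were within 2 pooled SDs. In total RNA per kb BCL2L1 was highest (9.16 ± 0.064), followed by PMAIP1 (8.52 ± 0.12) and BID (7.97 ± 0.091), and BBC3 and BCL2L11 were lowest (4.27 and 4.26), within their spread of each other. In log2 TE per length BAX stood highest (3.21 ± 0.29) and PMAIP1 lowest (-0.44 ± 0.29), next to MCL1 (-0.10 ± 0.24), which differed from PMAIP1 by less than 2 pooled SDs. All lengths are from GENCODE v29, where only the transcripts of BCL2L1 and BBC3 have the counted version. For MCL1 they are those of another transcript than the counted one.

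The pathway around these genes was described from lists of other genes of apoptosis and its regulation. Of 6 stress regulators upstream 3 rose in RPFs after both knockdowns, ATF4, DDIT3 (CHOP) and TRIB3, an ATF4 target, while ATF3, FOXO3 and JUN were not called (background 27.3% and 2.75% of all genes). The RPF responses were 1.02 and 0.76 for ATF4, 1.49 and 1.73 for DDIT3 and 2.00 and 1.85 for TRIB3 (shEIF2B1 and shEIF2B4). In total RNA DDIT3 (0.91 and 1.16) and TRIB3 (1.20 and 1.29) rose, 2 of 6 after each knockdown (background 3.47% and 5.4%). In TE 3 of 6 rose after shEIF2B1, ATF4 (0.83), DDIT3 (0.58) and TRIB3 (0.80), and 0 of 6 were called after shEIF2B4 (background 7.1% and 0.0923%). After shEIF2B4 4 of the 6 had an unadjusted p under 0.05 by limma, as did 1848 of all 10836 genes.

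In RPFs after shEIF2B1 the other lists described here had 0 or 1 call each, where 15.3% of all genes were called lower. Of 5 genes of the receptor complex 1 fell, CASP8 (-0.61), the initiator caspase that death receptor 5 recruits. Of 6 inhibitors of apoptosis and their antagonists 1 fell, DIABLO (-0.41), an antagonist released from mitochondria, and of 4 outer membrane partners 1 fell, VDAC3 (-0.34), a channel of that membrane. Of 6 other BCL2 family genes 1 fell, BCL2L15, by a response of -0.62 after shEIF2B1 and -0.58 after shEIF2B4 (background 2.75%). BCL2, BCL2A1, BCL2L10, BMF, HRK and BCL2L14 were not in the RPF table. Of 8 other death receptors and ligands and of 3 genes of MCL-1 turnover 0 were called in RPFs after either knockdown, with 1 each at an unadjusted p under 0.05 after shEIF2B1 by limma and 0 after shEIF2B4. Over all genes 3767 and 1749 of 11145 had such a p.

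After shEIF2B4 the receptor complex, inhibitor and outer membrane lists had 0 calls in RPFs. Each had 1 gene at an unadjusted limma p under 0.05, where 1749 of all 11145 genes were. In total RNA the calls outside the stress regulators were in the inhibitor list after shEIF2B4, where XIAP rose (0.40) and DIABLO fell (-0.33) of 7 measured (background 5.4%). In TE BIRC5, which encodes survivin, rose after shEIF2B1 (0.64), 1 of 6 measured (background 7.1%). The median RPF response to shEIF2B1 was -0.31 for the outer membrane partners and 0.70 for the stress regulators, against 0.27 for the 10 genes. It was 0.062 for the other BCL2 family genes and -0.038 for the other death receptors and ligands. For the receptor complex it was -0.010, for the inhibitor list -0.00084 and for MCL-1 turnover -0.20.

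The genes whose RPF values followed each called gene most closely over the 24 RPF libraries, by Pearson correlation after each week's mean was removed, are given as a description, since the libraries share weeks, lines and base composition. For TNFRSF10B these were TNNT1 (r = 0.951), ISG20 (0.949) and PRDX5 (0.948). For BBC3 they were TAPBPL (0.949), AOC1 (0.943) and HLA-G (0.937). For BAD they were GRINA (0.916), PRAF2 (0.909) and PCNX3 (0.908), for BAX TOR3A (0.870), FAAP20 (0.868) and ELP5 (0.860), and for BAK1 PRAG1 (0.804), CLCN7 (0.783) and TOLLIP (0.780). For MCL1, called in total RNA, they were NKAP (0.887), SERPINB1 (0.845) and GFPT1 (0.840).

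Promoters, 250 bases before to 50 after the start site in RefSeq on GRCh38.p14, were matched for 8 of the 10 genes and searched on both strands. TNFRSF10B and MCL1 had no match and were not searched. A gene was counted where any promoter under its symbol held the letters, while the shares over all are of single promoters. A gene with several promoters thus had more chances to be counted. The core of the ATF4 and CHOP element, TGATGNAA, was in 0 of these 8, against 3.62% of all 35116 promoters. CCAAT was in 5 of 8 (BAD, BAK1, BAX, BBC3 and BCL2L11) against 34.6%, the GC box GGGCGG in 7 of 8 against 45.0% and TATAAA in 1 of 8 (BCL2L1) against 11.5%. These are letters in a window of 300 bases and say nothing of sites elsewhere.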

How the data were processed

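Ribo-seq and cytoplasmic RNA-seq were run on 24 lysates of SW480 cells, giving 48 libraries. The authors removed adaptors and duplicates. Per the study's methods, total RNA was aligned with bowtie2 to protein-coding transcripts (GENCODE v38) and quantified with RSEM. RPFs were aligned to the most expressed transcript per gene. The authors deposited regularized log2 values (DESeq2) in separate tables for RPFs and total RNA. The submitters' processing notes list R 4.3.1, cutadapt 1.18, RSEM and SAMtools 1.9. No counts were used, so depth and counting error are unknown, and regularization pulls low values towards the mean of the gene. Groups came from the labels, and 0 columns of other samples were present. The counting settings for strand are not given in the sources used here.

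Tables were fitted whole with limma 3.58.1 (R 4.3.3, mean-variance trend, two-sided, Benjamini-Hochberg over all genes, threshold 0.1), after tests on simulated data. The week was a block, since the treatment text of the labels and the study's methods state separate weeks. Per the series' design text, replicate 3 joins 2 sequencing runs of the same libraries. Deviations of libraries with the same number correlated at a mean r of 0.559 in RPFs (52 of 60 pairs over 0.1), 0.183 in total RNA (37 of 60) and 0.538 in TE (55 of 60). Alternatives were fits without the block, without the trend, without the lowest 25% of genes, with libraries centred, over all 24 lysates, without shCTRL, on weekly changes, at a threshold of 0.05 and without each replicate. Removal of the CDS GC trend was added after the data were seen. Positions and CDS came from GENCODE v29 (GRCh38), matched without transcript version. A CDS was found for 99.9% of genes, and 340 transcripts were replaced by the longest CDS of the gene. Figures were drawn in Python 3.11.15 with matplotlib 3.10.9.

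The naming rule took in all 10 genes in every comparison. Where a gene was not called, its value is printed singly, in a range or in a figure, and TE and total RNA values of genes not called are not all printed. Genes of the other lists are named when called in a response or when they answer a count, and the 3 genes most alike in RPFs are named for genes called in a response. The 10 genes and the lists were chosen with earlier results of these data known. The apoptosome list is not reported here.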

Additional observations from a re-analysis of the deposited data

Results flagged for a closer look

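In 5 of the 120 groups of 4 libraries tested over the 10 genes, 1 library stood apart from the other 3, and chance alone flags about 1 in 20 such groups. PMAIP1 RPFs in shCTRL -DOX were 4.97 in replicate 3, below the other 3 libraries (5.57 to 5.67). BCL2L11 RPFs in shEIF2B4 -DOX were 3.49 in replicate 2, below the others (4.06 to 4.08). BCL2L1 total RNA in shEIF2B4 +DOX was 10.27 in replicate 1, below the others (10.42 to 10.44). BAD total RNA in shEIF2B1 -DOX was 7.05 in replicate 3, above the others (6.92 to 6.93). TNFRSF10B total RNA in shCTRL -DOX was 9.38 in replicate 1, above the others (9.23 to 9.25). All are log2 values.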

How the results depend on the processing

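Counts are of the 10 genes called by limma. No called value changed sign under any alternative run. Of 120 values of single genes, 36 changed sign under at least 1 alternative, none of them called as reported or under that alternative (by limma). The RPF response of MCL1 to shEIF2B1 went from 0.070 to -0.14 with the CDS GC trend removed, that of PMAIP1 to shEIF2B4 from -0.11 to 0.23 without replicate 4, and the total RNA response of BAX to shEIF2B1 from 0.062 to -0.10 without replicate 2. Without the replicate block, RPF calls after shEIF2B1 went from 5 to 0, RPF calls after shEIF2B4 from 1 to 0, TE calls after shEIF2B1 from 2 to 0 and the shCTRL total RNA call from 1 to 0. The other counts of the 10 genes did not move without the block. Without the shCTRL subtraction the counts were 3 (RPF, shEIF2B1), 3 (RPF, shEIF2B4), 2 (total RNA, shEIF2B1), 4 (total RNA, shEIF2B4) and 2 (TE, shEIF2B4). On weekly changes they were 4 (RPF, shEIF2B4) and 1 (TE, shEIF2B4). With the CDS GC trend removed, a setting chosen after seeing the data, they were 0 (RPF, shEIF2B1) and 0 (TE, shEIF2B1). TE after shEIF2B1 had 1 call without the mean-variance trend, 0 over all 24 libraries and 1 at a threshold of 0.05. The shCTRL total RNA call was lost (0) without the trend, with libraries centred, over all 24 libraries and at a threshold of 0.05. Leaving out each replicate in turn gave 2 to 5 (RPF, shEIF2B1), 0 to 4 (RPF, shEIF2B4), 0 to 4 (RPF, shCTRL), 0 to 2 (total RNA, shCTRL), 0 to 3 (TE, shEIF2B1), 0 to 2 (TE, shEIF2B4) and 0 to 1 (TE, shCTRL). The cause of these moves was not tested.

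Over all genes, RPF calls after shEIF2B1 went from 3038 to 50 without the block, 1895 over all 24 libraries, 5507 without shCTRL, 889 with the GC trend removed, 1963 at a threshold of 0.05, and 1558 and 1529 without replicate 1 or 4. After shEIF2B4 they went from 307 to 36 without the block, 490 over all 24 libraries, 2655 without shCTRL, 2009 on weekly changes, 138 at a threshold of 0.05, and 1615, 77, 66 and 43 without replicates 1 to 4. Total RNA calls after shEIF2B1 went from 414 to 191 without the block, 4104 without shCTRL, 676 on weekly changes, 670 with the GC trend removed, 209 at a threshold of 0.05 and 111 to 645 without 1 replicate. After shEIF2B4 they went from 645 to 349 without the block, 4112 without shCTRL, 1201 on weekly changes, 374 at a threshold of 0.05 and as low as 217 without replicate 4. TE calls after shEIF2B1 went from 769 to 0 without the block or replicate 1, 44 over all 24 libraries, 1857 without shCTRL, 1251 on weekly changes, 21 with the GC trend removed, 241 at a threshold of 0.05 and 1366 without replicate 2. After shEIF2B4 they went from 10 to 718 on weekly changes, 673 without shCTRL, 1417 without replicate 1, 38 over all 24 libraries, 27 without the trend, 5 with the GC trend removed and 0 in the other fits that left out a replicate, the block or the lowest 25% of genes. In shCTRL RPFs the 1098 calls became 3526 without replicate 1, 3 or 4 without another, 636 with the GC trend removed, 274 at a threshold of 0.05 and 0 without the block, and the 531 in total RNA became 2452 without replicate 1, 3 to 166 without another, 41 at a threshold of 0.05 and 9 without the block. In shCTRL TE the 42 calls became 0 to 621. The difference between knockdowns went from 1 gene to 0 to 3 in RPFs and from 12 to 0 to 24 in total RNA. Of the RPF calls after shEIF2B1, 43.9% were higher as reported and 55.7% with libraries centred on their medians. With 4 weeks and unknown depth, differences of the size of the week-to-week spread could not be resolved.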
